A study of Rattus norvegicus with 6 samples.

Results

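Macrophages live in the dorsal root ganglion beside its sensory neurons and glia, and they depend on the receptor CSF1R, encoded by Csf1r. Its ligand CSF1, encoded by Csf1 and also called macrophage colony-stimulating factor, is made by other cells and keeps macrophages alive and dividing. Injured sensory neurons are known to make CSF1, and fibroblasts make it in many tissues. The genes described here are 10 symbols chosen by name: this ligand and receptor, C1qa and C1qb for subunits of the complement protein C1q that macrophages make, and the macrophage markers Adgre1, Cd68, Aif1, Mrc1, Cd163 and Itgam. The mRNA table held 16551 genes, and 8 of the 10 were among them, each on a single row. Cd163 and Itgam, for a haemoglobin scavenger receptor and an integrin of myeloid cells, had no row there and are not analysed here.

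The cells came from rat dorsal root ganglia, were grown as a primary culture and were sequenced as 2 groups of 3 samples, DM1 to DM3 and control1 to control3. The DM group is taken here as the high-glucose one, whose medium held 45 mmol/L glucose over 48 h, and the control group was kept in DMEM whose glucose content the labels do not give. The labels name no strain, age or osmotic control, and they call the samples of a group duplicates without saying whether these were separate cultures or animals, so the p-values describe no more than how these samples vary, which may be technical. Reads per sample in the mRNA table were 28780612 to 33108451 in high glucose and 28949744 to 32181594 in control. Levels are counts per 1000000 reads of the authors' scaled library (CPM), and each log2 fold change is high glucose minus control with its standard error (SE), from limma with Benjamini-Hochberg adjustment over all 16551 genes. Transcript lengths were not used, so differences are read between groups. Where levels are ranked or summed over genes, they count reads and not transcripts.

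The labels call the cells nerve cells, and markers of neurons and of other cells of the ganglion were measured. Over all genes 50.5% passed the test at an adjusted p under 0.05, 24.9% higher and 25.5% lower in high glucose, and the counts below stand beside that share. The 10 neuronal markers summed to 61.1 to 62.8 CPM in high glucose and 102 to 106 in control, and 7 of them fell, among them Tubb3 and Uchl1, the 2 with the highest level. Uchl1 alone had a mean of 48.0 CPM in high glucose and 58.8 in control, so it weighs heavily in these sums. The median log2 fold change of the 10 was -1.85. The 7 fibroblast markers measured, led by Col1a1 and Col3a1, summed to 63714 to 67628 CPM in high glucose and 72270 to 75457 in control. Col1a1 had a mean of 26170 CPM in high glucose and 34811 in control, Col3a1 24277 and 20016, and Fn1 13358 and 18427. These 3 weigh heavily in the sums. Of the 7 markers 4 rose (Col3a1, Dcn, Lum and Pdgfra) and 3 fell (Col1a1, Thy1 and Fn1). After quantile normalization 3 were higher and 1 lower, and Col1a1, Col3a1 and Fn1 tied between the groups. That method gives the top ranks the same values in every sample, so these ties say nothing about the genes. The 8 markers of Schwann and satellite cells, led by Ngfr and Erbb3, summed to 284 to 315 CPM in high glucose and 463 to 484 in control, and 7 of them fell. The 6 endothelial markers measured, led by Tek and Egfl7, gave 19.8 to 20.8 CPM in high glucose and 19.3 to 22.1 in control, and 0 of them passed. Tek alone had a mean of 14.8 CPM in each group, and 3 of the 6 had under 100 reads over the 6 samples. Egfl7, lower in high glucose, and Vwf, higher on 44 reads against 15, had unadjusted limma p-values under 0.05 (0.0387 and 0.0422). The part of these cells in the results below was not tested. In bulk RNA, fewer cells of a type and less RNA per cell cannot be told apart.

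The promoters of Csf1r, C1qa, C1qb and Adgre1 are shown because these are the macrophage genes that changed below and have an entry in the RefSeq promoter table of the build GRCr8. Of the 8 measured genes 6 had an entry, and Csf1 and Aif1 did not. Each line gives the 250 bases before the annotated start, 5′ to 3′ on the gene's strand, and capitals mark GAGGAA or its reverse complement TTCCTC, letters of the core bound by PU.1, the transcription factor that directs myeloid cells.
Csf1r, chr18:56834129-56834378, plus strand: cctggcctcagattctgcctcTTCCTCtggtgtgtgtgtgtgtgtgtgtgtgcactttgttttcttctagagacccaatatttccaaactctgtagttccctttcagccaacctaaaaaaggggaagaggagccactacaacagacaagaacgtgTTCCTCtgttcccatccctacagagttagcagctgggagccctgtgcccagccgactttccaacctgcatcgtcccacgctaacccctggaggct
C1qa, chr5:154419934-154420183, minus strand: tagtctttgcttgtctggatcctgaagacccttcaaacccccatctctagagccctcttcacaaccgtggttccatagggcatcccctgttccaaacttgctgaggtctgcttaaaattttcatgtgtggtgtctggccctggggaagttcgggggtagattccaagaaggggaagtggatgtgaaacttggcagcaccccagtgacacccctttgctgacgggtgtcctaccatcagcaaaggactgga
C1qb, chr5:154407828-154408077, minus strand: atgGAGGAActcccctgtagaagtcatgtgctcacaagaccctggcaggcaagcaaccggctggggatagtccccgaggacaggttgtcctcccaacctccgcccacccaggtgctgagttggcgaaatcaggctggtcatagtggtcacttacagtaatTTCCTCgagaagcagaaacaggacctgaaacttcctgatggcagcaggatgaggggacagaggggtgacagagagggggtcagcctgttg
Adgre1, chr9:2329190-2329439, plus strand: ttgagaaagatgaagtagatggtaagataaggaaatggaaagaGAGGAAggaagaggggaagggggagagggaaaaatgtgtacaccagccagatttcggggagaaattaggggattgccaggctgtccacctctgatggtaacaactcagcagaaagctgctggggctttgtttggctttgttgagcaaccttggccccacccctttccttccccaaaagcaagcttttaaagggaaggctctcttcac
The letters stood on either strand in 5 of the 6 promoters, Csf1r, C1qb, Adgre1, Cd68 and Mrc1, and in 23.3% of the 33469 promoters of the table. C1qa held no match in this window, and Csf1r held 2, both as TTCCTC, whose first bases lie 229 and 95 bases before the start. A match is a description of the letters and not a binding site, and the table is of another build than the Rnor_6.0 of the deposited data.

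Of the 8 measured genes, 5 passed the test at an adjusted p under 0.05, 2 higher and 3 lower in high glucose. With 50.5% of all genes passing, 24.9% higher and 25.5% lower, a count of 5 in 8 lies near the background. The 2 that rose were the ligand gene Csf1 and the receptor gene Csf1r. The 3 that fell were C1qa, C1qb and Adgre1. The median log2 fold change of the 8 was -0.13, beside 0.01 over all genes. These same 5 genes had groups that did not overlap, which held for 57.6% of all genes. Of the 4 genes with under 100 reads over the 6 samples (Aif1, Mrc1, C1qa and C1qb) 2 passed, where 14.7% of all genes this scarce did, and of the 4 others 3 passed, where 60.0% did.

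**Figure D1:**
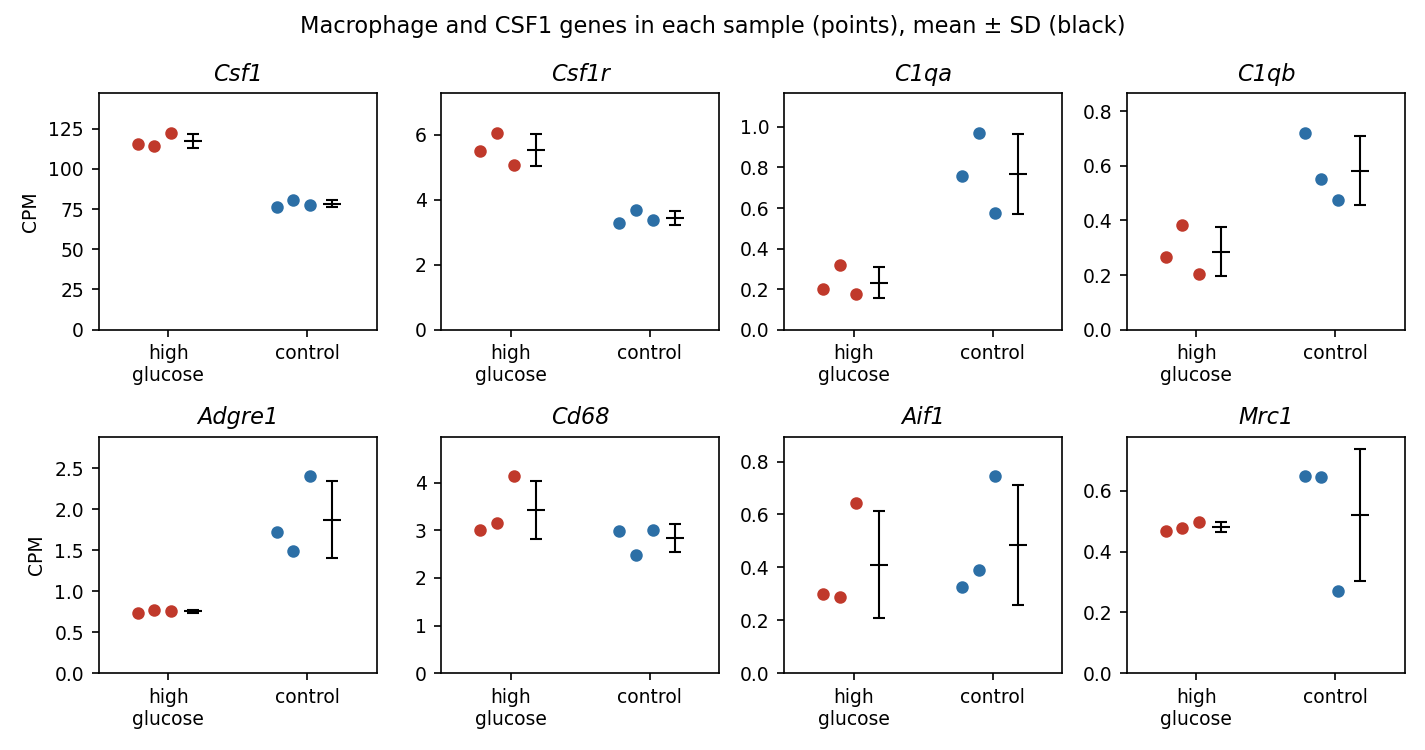
CPM in each sample for the 8 measured genes (points; high glucose red, control blue), with the mean ± SD of 3 samples in black and each axis starting at 0. Csf1 and Csf1r lie higher in all high-glucose samples, C1qa, C1qb and Adgre1 lie lower in all of them, and Cd68, Aif1 and Mrc1 overlap.

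Csf1 (ENSRNOG00000018659), the ligand, had 115, 114 and 122 CPM in DM1, DM2 and DM3, against 76.4, 81.0 and 77.8 in control1, control2 and control3. All high-glucose samples lay above all control samples, and the spread within a group was small. The mean was 117 ± 4.36 CPM in high glucose and 78.4 ± 2.32 in control (SD, n = 3 each), a 1.50-fold rise with a log2 fold change of 0.58 ± 0.03 (limma adjusted p = 7.77e-09). It rested on 11227 reads in high glucose and 6926 in control, and its log2 fold change stayed between 0.55 and 0.70 under the 13 alternatives tried.

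Csf1r (ENSRNOG00000018414), the receptor and a tyrosine kinase of cells of the macrophage lineage, had 5.50, 6.06 and 5.07 CPM in DM1 to DM3, against 3.28, 3.69 and 3.38 in control1 to control3. The lowest high-glucose sample lay above the highest control sample. The reads were 165, 190 and 173 in high glucose and 91, 114 and 100 in control. Csf1r rose 1.60-fold, by 0.68 ± 0.12 on the log2 scale (95% interval 0.42 to 0.94, limma adjusted p = 0.000293), and the alternatives gave adjusted p of 7.52e-05 to 0.00306.

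C1q starts the classical complement cascade when it binds antibody or debris. The genes of its chains were scarce in these cultures, and C1qa and C1qb were lower in high glucose. C1qa (ENSRNOG00000012807) had 6, 10 and 6 reads in DM1 to DM3, against 21, 30 and 17 in control1 to control3. As levels these were 0.200, 0.319 and 0.176 CPM in high glucose and 0.756, 0.971 and 0.575 in control, with no overlap. C1qa was 3.20-fold lower, at -1.68 ± 0.37 on the log2 scale (limma adjusted p = 0.00176). The 22 reads of the high-glucose group have an exact Poisson 95% interval of 13.8 to 33.3, and the 68 of the control group one of 52.8 to 86.2, which covers counting error only.

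C1qb (ENSRNOG00000012749) had 8, 12 and 7 reads in DM1 to DM3, against 20, 17 and 14 in control1 to control3. Its levels were 0.267, 0.383 and 0.205 CPM in high glucose, all below the 0.720, 0.550 and 0.474 of control. It was 2.02-fold lower, at -1.01 ± 0.36 on the log2 scale (limma adjusted p = 0.0334). That call rested on few reads: the alternatives gave adjusted p of 0.0164 to 0.120, which lay above 0.05 without DM1 (0.0726), DM3 (0.106), control1 (0.120) or control2 (0.0657), and without the authors' scaling factors (0.0539).

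**Figure D2:**
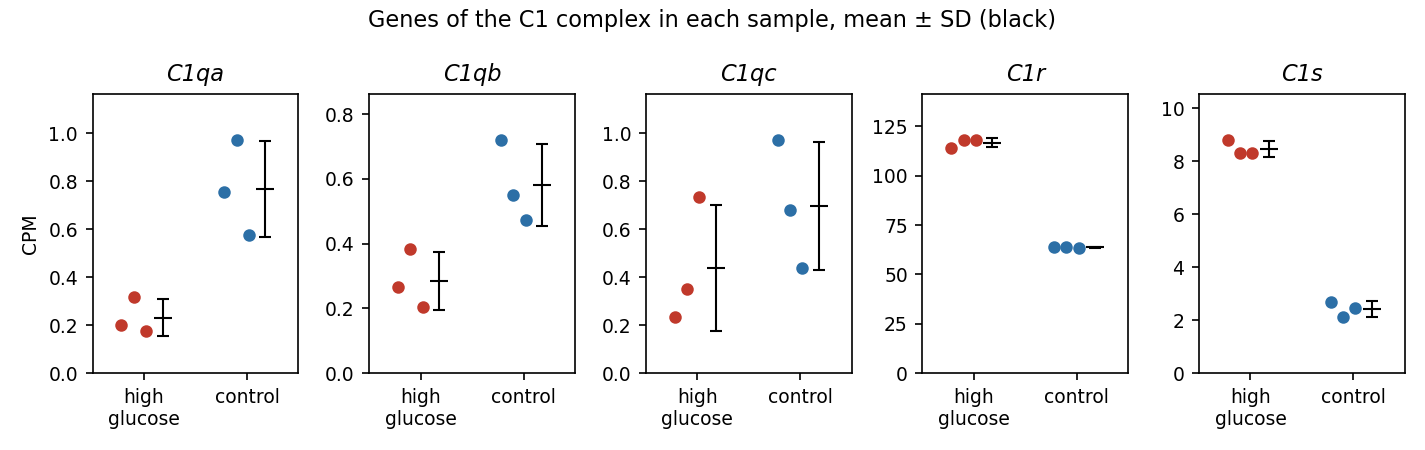
CPM in each sample for the genes of the C1 complex (points; high glucose red, control blue; black mean ± SD of 3 samples; axes start at 0 and differ between panels). The C1qa and C1qb levels are below control in every high-glucose sample, C1qc overlaps, and C1r and C1s are above control in every high-glucose sample.

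The remaining genes of the C1 complex were set beside them. C1qc, the gene of the remaining C1q chain, had 7, 11 and 25 reads in DM1 to DM3, against 27, 21 and 13 in control1 to control3. These groups overlapped, and the log2 fold change of -0.73 ± 0.43 did not pass (limma adjusted p = 0.179, with a range of 0.0397 to 0.519 over the alternatives, of which the lowest was without DM3). The 3 C1q chains together had 21, 33 and 38 reads in high glucose and 68, 68 and 44 in control. C1r and C1s, the proteases of the complex, which many connective tissue cells make, moved the other way. C1r had 114, 118 and 118 CPM in high glucose and 63.8, 64.1 and 63.4 in control, a rise of 1.83-fold (0.87 ± 0.03, limma adjusted p = 1.92e-11). C1s had 8.80, 8.30 and 8.30 CPM in high glucose and 2.70, 2.10 and 2.47 in control, a rise of 3.49-fold (1.80 ± 0.12, limma adjusted p = 3.52e-08).

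Adgre1 (ENSRNOG00000046254) encodes the adhesion receptor F4/80, the classical surface marker of mouse macrophages. It had 22, 24 and 26 reads in DM1 to DM3, against 48, 46 and 71 in control1 to control3. Its levels were 0.733, 0.766 and 0.762 CPM in high glucose and 1.73, 1.49 and 2.40 in control, so that the groups did not overlap and control3 lay highest. Adgre1 was 2.41-fold lower, at -1.27 ± 0.23 on the log2 scale (limma adjusted p = 0.000481), and without control3 the value was -1.07 with an adjusted p of 0.00408, within a range of 0.000356 to 0.00506 over all alternatives.

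Cd68, Aif1 and Mrc1 did not pass. Cd68 (ENSRNOG00000037563), a lysosomal membrane glycoprotein used as a macrophage marker, had 3.00, 3.16 and 4.13 CPM in DM1 to DM3, against 2.99, 2.49 and 3.01 in control1 to control3. DM1 lay within the range of control, and DM3 stood highest. The log2 fold change was 0.27 ± 0.16, with a 95% interval of -0.08 to 0.61 (limma adjusted p = 0.185), so a rise of up to 1.53-fold lay within the interval. It stayed above 0 and short of the threshold under all 13 alternatives, with adjusted p of 0.0579 to 0.571.

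Aif1 (ENSRNOG00000000853), the actin-binding protein IBA1 of microglia and macrophages, had 9, 9 and 22 reads in DM1 to DM3, against 9, 12 and 22 in control1 to control3. DM3 and control3 each held more reads than the other samples of their group, and the groups overlapped. The log2 fold change was -0.24 ± 0.43 with a 95% interval of -1.16 to 0.68 (limma adjusted p = 0.668). Mrc1 (ENSRNOG00000018251), the mannose receptor CD206 of tissue-resident macrophages, had 14, 15 and 17 reads in high glucose and 18, 20 and 8 in control. Both groups summed to 46 reads, and the log2 fold change was -0.02 ± 0.37 with an interval of -0.83 to 0.79 (limma adjusted p = 0.975). For both genes the direction was not fixed by these reads: Aif1 turned to 0.10 without control3, and Mrc1 turned above 0 without DM1, without control1 (0.19), without control2 (0.18) and without scaling factors (0.10).

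**Figure D3:**
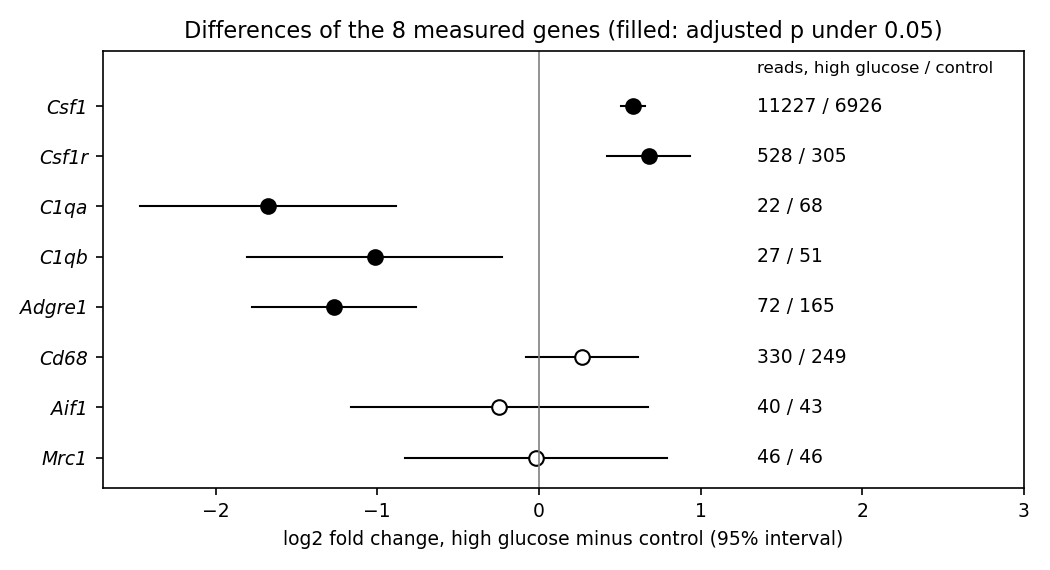
Log2 fold change, high glucose minus control, of the 8 measured genes with the 95% interval from limma (filled circles passed at an adjusted p under 0.05), and the reads over the 3 samples of each group at the right. The intervals of Csf1 and Csf1r lie above 0, those of C1qa, C1qb and Adgre1 below 0, and those of Cd68, Aif1 and Mrc1 span 0.

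The error was larger for the scarcer genes. Csf1, with 18153 reads over the 6 samples, had a standard error of 0.03, and Csf1r, Cd68 and Adgre1, with 833, 579 and 237 reads, had 0.12, 0.16 and 0.23. C1qa, C1qb, Mrc1 and Aif1, with 78 to 92 reads, had 0.36 to 0.43. Their 95% intervals were accordingly wide, as those of Aif1 and Mrc1 above show.

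**Figure D4:**
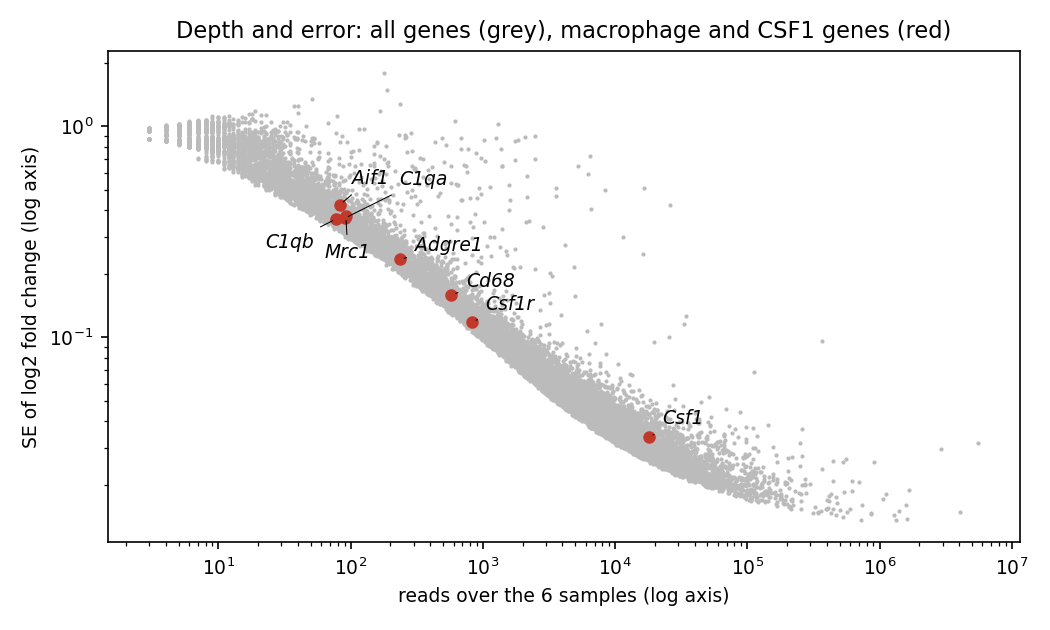
Standard error of the log2 fold change against the reads over the 6 samples, both on log axes, for all 16551 genes (grey) and the 8 measured macrophage and CSF1 genes (red). Csf1 lies at 18153 reads with an error of 0.03, and C1qa, C1qb, Mrc1 and Aif1 lie at 78 to 92 reads with errors of 0.36 to 0.43.

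A list of 21 further genes of colony-stimulating factor signalling was all measured. Of these 4 rose, 6 fell and 11 did not pass, with a median log2 fold change of -0.18, so 47.6% passed, beside 50.5% of all genes. Il34, the other ligand of CSF1R, is given for that role: it had 0.700, 1.34 and 0.909 CPM in high glucose and 0.612, 0.744 and 0.440 in control. The groups overlapped, and its log2 fold change of 0.68 ± 0.32 did not pass (limma adjusted p = 0.0915, 0.0492 to 0.339 over the alternatives, with the lowest, 0.0492, without scaling factors). Ptprz1, a receptor phosphatase that IL-34 also binds and that glia express, was 2.76-fold lower at 6.24 ± 0.594 CPM in high glucose and 17.2 ± 0.624 in control (SD, n = 3 each; limma adjusted p = 6.31e-09). Adam17, a protease that sheds CSF1 and CSF1R from the cell surface, rose 1.12-fold (0.16 ± 0.04, limma adjusted p = 0.00244). Csf2ra, the alpha chain of the receptor for the related factor GM-CSF, rose 1.31-fold on 784 reads in high glucose and 552 in control (0.38 ± 0.10, limma adjusted p = 0.00718).

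Among transcription factors of that list, Spi1, the gene of PU.1, had 32, 26 and 27 reads in high glucose and 15, 11 and 15 in control, which is 1.89-fold higher (0.92 ± 0.29, limma adjusted p = 0.0190). The alternatives gave adjusted p of 0.00938 to 0.0834, with 0.0834 without DM1 and 0.0652 without control2. Runx1 and Cebpa, which also act in myeloid differentiation, were 1.31-fold and 1.62-fold lower (-0.39 ± 0.03 and -0.70 ± 0.08, limma adjusted p = 2.10e-07 and 1.20e-05). Irf8, a further myeloid factor, held 84 reads in high glucose and 86 in control and did not pass (-0.15 ± 0.24, limma adjusted p = 0.635).

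Of the signal transducers of the list, Syk, a kinase downstream of immune receptors, was 2.13-fold lower on 38 reads in high glucose and 71 in control (limma adjusted p = 0.0212, 0.00489 to 0.0869 over the alternatives). It lay above 0.05 without DM1 (0.0869), DM3 (0.0518), control1 (0.0547) or control2 (0.0593) and where all genes shared a single variance prior (0.0572). Cbl, the ubiquitin ligase that ends CSF1R signalling, was 1.11-fold lower (-0.16 ± 0.03, limma adjusted p = 0.000638), and without scaling factors its value was -0.04 and did not pass (0.237 at the top of its range of 0.000505 to 0.237). Tyrobp, the adaptor DAP12 of myeloid receptors, had 11, 14 and 16 reads in high glucose and 16, 15 and 12 in control and did not pass (-0.18 ± 0.32, limma adjusted p = 0.669).

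**Figure D5:**
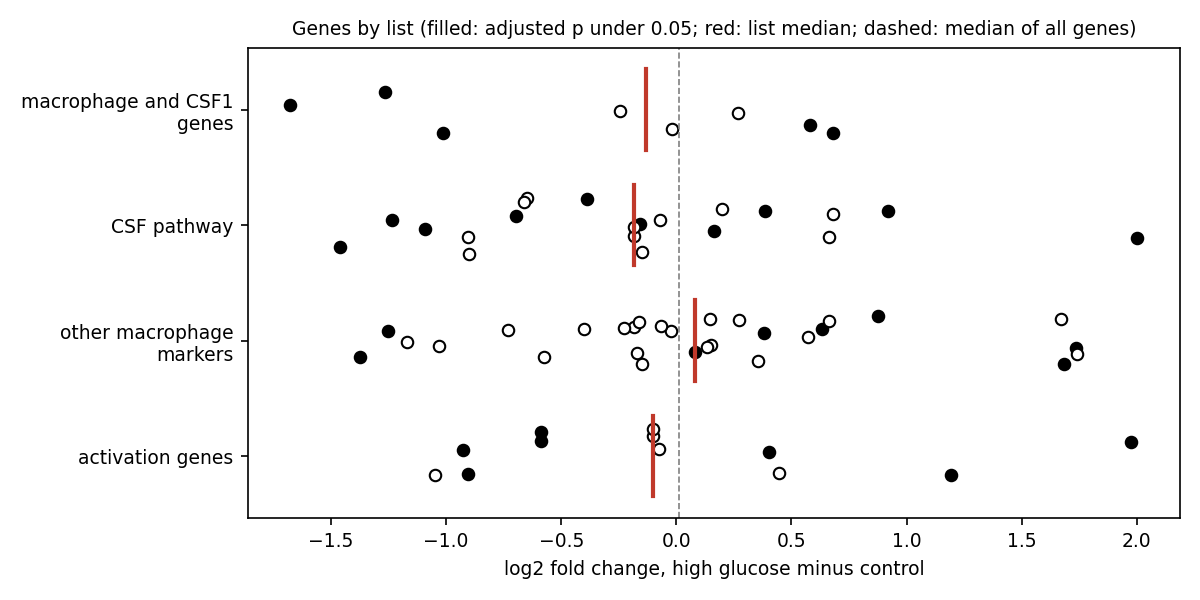
Log2 fold change, high glucose minus control, of each measured gene in the lists of macrophage and CSF1 genes (8), the CSF pathway (21), other macrophage markers (29) and activation genes (12); filled circles passed at an adjusted p under 0.05, red bars are list medians and the dashed line is the median of all genes. In each list genes lie on both sides of 0, and the list medians are -0.13, -0.18, 0.08 and -0.10.

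A list of 37 other macrophage markers had 29 measured. Of these 6 rose, 2 fell and 21 did not pass, with a median log2 fold change of 0.08, so 27.6% passed, beside 50.5% of all genes, and 11 of the 29 had under 100 reads over the 6 samples. No measured member was at 0 reads in either group, in a table whose every row had reads in at least 3 samples. Their summed level was 181 to 185 CPM in high glucose and 170 to 175 in control, of which Tmem119, a microglial marker that mesenchymal cells also express, made up 130 ± 2.12 in high glucose and 123 ± 2.74 in control (SD, n = 3 each). Ptprc, the pan-leukocyte antigen CD45, had 49, 45 and 52 reads in high glucose and 63, 47 and 45 in control. Its log2 fold change of -0.18 ± 0.21 did not pass (limma adjusted p = 0.497), and without control1 it was 0.01.

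Of the markers that rose, Cd14, Cybb, Fcgr2b and Fcgr1a did so by 1.55-fold or more. Cd14, the co-receptor for bacterial lipopolysaccharide, had 15.9, 15.4 and 16.2 CPM in high glucose and 10.3, 10.5 and 9.81 in control, a rise of 1.55-fold (0.63 ± 0.06, limma adjusted p = 2.00e-06). Cybb, the catalytic subunit of the phagocyte NADPH oxidase, rose 1.83-fold on 363 reads in high glucose and 183 in control (0.88 ± 0.16, limma adjusted p = 0.000349). The Fc receptor genes Fcgr2b and Fcgr1a, for receptors that bind antibody, rose 3.22-fold and 3.33-fold (limma adjusted p = 0.00236 and 0.00272). Fcgr2b had 24, 42 and 32 reads in high glucose and 6, 7 and 16 in control. Fcgr1a had 14, 19 and 24 reads in high glucose and 6, 6 and 3 in control. In neither gene did the groups overlap.

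The other 2 that rose did so by less. Mertk, a receptor for the uptake of dead cells, was 1.30-fold higher (0.38 ± 0.13, limma adjusted p = 0.0223, 0.00479 to 0.0918 over the alternatives). It lay above 0.05 without DM2 (0.0918), DM3 (0.0575) or control1 (0.0862). Tmem119 was 1.06-fold higher (0.08 ± 0.03, limma adjusted p = 0.0218, 3.95e-05 to 0.108 over the alternatives). It lay above 0.05 without DM1 (0.0934) or control2 (0.108) and with a single variance prior (0.0987).

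The 2 markers that fell were Lcp1 and Cx3cr1. Lcp1, an actin-bundling protein of leukocytes, had 3.97, 4.18 and 5.07 CPM in high glucose and 10.4, 10.5 and 10.6 in control. It was 2.38-fold lower (-1.25 ± 0.10, limma adjusted p = 2.80e-07). Cx3cr1, the fractalkine receptor of monocytes and resident macrophages, had 10, 3 and 5 reads in high glucose and 16, 13 and 12 in control, which is 2.59-fold lower (-1.37 ± 0.47, limma adjusted p = 0.0255, 0.00612 to 0.0949 over the alternatives). It lay above 0.05 without DM2 (0.0949), DM3 (0.0655) or control1 (0.0892) and with a single variance prior (0.0656).

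Genes that macrophages switch on or off when activated, many of which other cells also express, had 12 of 14 measured, with 3 higher, 4 lower and a median log2 fold change of -0.10, so 58.3% passed, beside 50.5% of all genes. Cd80, a costimulatory ligand of T cells, rose 2.28-fold at 14.3, 13.6 and 13.2 CPM in high glucose and 6.66, 6.18 and 5.24 in control (1.19 ± 0.09, limma adjusted p = 1.73e-07). Gpnmb, a membrane glycoprotein of phagocytes and pigment cells, rose 1.32-fold (0.40 ± 0.02, limma adjusted p = 4.79e-09). Retnla, a secreted factor of mouse macrophages, had 12 reads over the high-glucose group and 2 over the control group. Per scaled library this is a ratio of 5.55, and counting error alone gives it an exact 95% interval of 1.23 to 51.0. In limma, on the log2 values, Retnla was 3.94-fold higher (1.98 ± 0.71, limma adjusted p = 0.0339, 0.0246 to 0.113 over the alternatives). It lay above 0.05 without DM1 (0.0599), DM2 (0.113), DM3 (0.0698) or control2 (0.104). Ptgs2, the inducible cyclooxygenase, was 1.87-fold lower, and the cytokine gene Il6 was 1.90-fold lower (limma adjusted p = 7.89e-10 and 4.04e-06). Hmox1, for haem oxygenase, and Lgals3, for a galectin, were each 1.50-fold lower (limma adjusted p = 1.88e-08 and 2.86e-08).

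Markers of other leukocytes were scarcer still. Of 14 lymphocyte markers 5 were measured, with 4 to 58 reads over the 6 samples, and their summed level was 0.830 to 1.13 CPM in high glucose and 0.518 to 0.744 in control. Of 9 granulocyte and mast cell markers 3 were measured, with 9 to 40 reads, at a summed 0.205 to 0.267 CPM in high glucose and 0.421 to 0.864 in control. By limma 0 genes of either list passed at an adjusted p under 0.05, beside 14.7% of all genes with under 100 reads, and Cd2 and Hdc had unadjusted p-values under 0.05 (0.0489 and 0.0451), Cd2 with 34 reads in high glucose and 13 in control and Hdc with 7 in high glucose and 20 in control.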

How the data were processed

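The authors deposited, per the file headers, a log2 value per gene and sample, and the file names call the values voom-normalized. The tools listed in the submitters' processing notes are featureCounts 1.6.0, HISAT2 2.1.0 and fastp 0.19.4, with the build Rnor_6.0. The annotation and strand setting are not given in the sources used here. The values have the form log2 of reads plus 0.5 per 1000000 reads of a scaled library, so whole reads were worked back, and 100% of them came within 0.01 of a whole number. Scaling factors were 1.03 to 1.05 in high glucose and 0.959 to 0.964 in control. Groups came from the sample titles. All genes were fitted with limma 3.58.1 in R 4.3.3 on the deposited log2 values, with group as the term, a mean-variance trend, two-sided tests and Benjamini-Hochberg adjustment at 0.05. The test was also run on simulated data with a single spread setting shared by all genes, so that run does not cover the replicate spread of these samples. CPM, SDs and Poisson intervals were computed from the recovered reads with Python 3.11.15 and scipy 1.17.1, and figures with matplotlib 3.10.9. The table of lncRNA rows holds none of the genes and was not used.

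The members and lists were chosen with earlier results of these data known. The genes named are all members, then of each pathway, marker and activation list all that passed (up to 8 a direction, or 4 in the lysosomal and other leukocyte lists), the 2 genes of highest level of each other cell type list, and for Csf1, Csf1r and Cd68 the 3 genes of nearest pattern. Il34, Irf8, Tyrobp, Ptprc, C1qc, Cd2, Hdc, Vwf, Dcn, Lum, Pdgfra, Thy1 and Fn1 fall outside that rule. They were chosen after their values were seen. A few genes chosen by this rule are not reported here. Alternatives left out each sample, blocked on replicate number, changed the variance prior, scaling, offset or weights, or left out genes of a mean log2 value under 0. In RefSeq's GRCr8 annotation Csf1, Mrc1 and Spi1 overlap non-coding genes and Adgre1 overlaps pseudogenes. Without a known strand setting, reads of such partners cannot be told apart.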

Additional observations from a re-analysis of the deposited data

How the results depend on the processing

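Under the 13 alternatives Csf1, Csf1r and Adgre1, and under the 12 that could be fitted for it C1qa, kept their direction and passed. C1qb kept its direction in all 12 and lost the call without scaling factors (-0.90, limma adjusted p = 0.0539). It also lost the call without DM1, DM3, control1 or control2 (limma adjusted p of 0.0657 to 0.120). Leaving out 1 sample gave C1qb log2 fold changes of -1.24 to -0.81. The other single-sample ranges were 0.55 to 0.61 for Csf1, 0.61 to 0.74 for Csf1r, -1.92 to -1.50 for C1qa, -1.42 to -1.07 for Adgre1, 0.13 to 0.36 for Cd68, -0.61 to 0.10 for Aif1 and -0.42 to 0.19 for Mrc1. Mrc1 turned to 0.10 without scaling factors. Of the 3 lower genes 1 was left when genes of a mean log2 value under 0 were dropped, because C1qa and C1qb were not fitted there. Without scaling factors all fold changes shifted by 0.11 in the median, and 5932 genes were higher and 2847 lower, beside 4126 and 4228. Alternatives were also fitted for 70 list genes, namely those that passed and C1qc, Il34, Tyrobp and Ptprc. Under every alternative that could be fitted, 45 of these 70 kept direction and call. Of the 896 values of all 70 genes, 842 did so. Of those that turned, Lamp2 was 0.036 without scaling factors, Ctsb 0.10 after quantile normalization and Ptprc 0.0065 without control1, in a single-sample range of -0.28 to 0.0065. The cause was not tested.

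Samples of the same replicate number did not deviate together (correlations of -0.0799, -0.0745 and -0.0453 over 11352 genes), so the numbers are not taken as pairs. With the replicate block 3968 genes were higher and 4084 lower, and of the 8 genes 2 were higher and 3 lower. Depth limits C1qa, C1qb, Mrc1 and Aif1, at 78 to 92 reads each.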

Other observations

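Lysosomal genes are given beside Cd68, whose protein lies in the lysosomal membrane. Of 23, all measured, 11 rose, 7 fell and 5 did not pass, so 78.3% passed, beside 50.5% of all genes, with a median log2 fold change of 0.06. Each of the 23 had at least 2246 reads over the 6 samples, and of all genes with 100 reads or more 60.0% passed. The split depended on the scaling: 15 were higher and 1 lower without scaling factors, and 15 higher and 4 lower after quantile normalization. Laptm4a, a lysosomal membrane protein, rose 1.41-fold (0.49 ± 0.02), and the proteases Ctsl and Tpp1 rose 1.25-fold and 1.27-fold (0.33 ± 0.03 and 0.35 ± 0.03). Those that fell changed by less: Ctsb had -0.17 ± 0.02, which was 0.10 after quantile normalization, Psap -0.14 ± 0.02, Cd63 -0.17 ± 0.02 and Npc2 -0.16 ± 0.03 on the log2 scale. Psap had adjusted p of 0.225 after quantile normalization, and Psap, Cd63 and Npc2 had 0.314, 0.111 and 0.129 without scaling factors. The 7 named here passed in limma at adjusted p of 3.88e-10 to 0.000107.

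Among 11351 other genes whose mean log2 value reached 1, those whose centred profile over the 6 samples lay nearest to Csf1 by Euclidean distance included Zhx3 and Cxcl12 (0.0498 and 0.0624 on the log2 scale). Nearest to Csf1r were Il15, Kctd2 and Slitrk5 (0.0932, 0.103 and 0.113), and nearest to Cd68 were Ebf4, Fhl4 and Rmdn2 (0.170, 0.179 and 0.194). All these profiles share the same 6 samples, libraries and groups.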
